A study of Marchantia polymorpha and Arabidopsis thaliana and Oryza sativa Japonica Group with 116 samples.

Results

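The loci described here were those whose transcripts rose at 2 h of salt in the wild-type liverwort Marchantia polymorpha and fell again by 24 h. Each locus was scored in the male wild-type strain Tak-1 by the smaller of its log2 ratios of 2 h to 0 h and of 2 h to 24 h, taken on group means of counts scaled to a fixed library total (CPM), with a pseudocount of 1 CPM. Male-linked loci, whose identifiers start with MapolyY, and loci whose highest Tak-1 group mean was under 5 CPM were left out. The 150 highest scores were kept, from 8325 loci that passed that minimum and 16743 loci in the table, which is 1.8% of the eligible loci. Of the eligible loci, 2319 scored above 0, so the 150 are the upper end of a longer series of loci with their highest mean at 2 h.

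Transcript levels were counted per locus in Tak-1 and in the mutants gpa1-2, gpb1-2 and xlg1-2, which by their names are affected in the canonical Gα subunit, the Gβ subunit and the extra-large Gα subunit of the heterotrimeric G protein. All plants were gemmalings 7 days old, kept in liquid diluted B5 medium under continuous light, and were sampled at 0 h, or after 2 h or 24 h of 100 mM NaCl. Each of the 12 groups held 3 libraries. The 0 h group of each genotype was its only control, so salt cannot be told apart from elapsed time or handling, and in whole gemmalings fewer cells of a type cannot be told apart from less RNA per cell.

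Salt reaches a plant first as an osmotic stress and later as a build-up of sodium ions. Genes of the first kind of response are typically induced within hours, and many of them return towards their starting level once the cells have adjusted. Heterotrimeric G proteins pass signals from the cell surface through a Gα subunit and a Gβγ dimer, and plants also have extra-large Gα proteins with an added N-terminal region. Marchantia is used for such questions because its subunit families are small and its gemmae, clonal propagules formed in cups on the thallus, give genetically uniform plants. The files do not pair the locus identifiers with gene names, and none of the 150 was found in the Marchantia annotation table that was available, so roles of single loci are not given and the loci are called by identifier and by rank of score.

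Total counts were 7.48 to 11.48 M in 30 libraries and 19.02 to 21.27 M in the 6 replicate 3 libraries of gpb1-2 and xlg1-2. Every library had its nearest neighbour by expression among libraries of its own time point, and 26 of 36 had it in their own group. Male-linked loci summed to 1034.6 to 1693.1 CPM, so every library carried the transcripts of male plants. The mutated genes could not be checked, because the identifiers of the G-protein genes are not given in the files. The replicate 1 libraries of xlg1-2 stood apart. Without them, 235, 635 and 385 loci of the whole table were called between gpb1-2 and xlg1-2 at 0, 2 and 24 h. Over those loci the replicate 1 library lay at a median 0.505, 0.757 and 0.472 of the way from the other xlg1-2 libraries (0) to gpb1-2 (1). Placed in the same way, but over only 12 to 126 loci, replicates 2 and 3 had medians between -0.253 and 0.041. Their 0 point included replicate 1, so these placements are not fully alike. Whether the replicate 1 libraries of xlg1-2 hold mixed or mislabelled material was not tested, so their xlg1-2 label is not certain. The library nearest to gpb1-2 replicate 1 was xlg1-2 replicate 1 at 0 h and 24 h. At 2 h it was gpb1-2 replicate 2. Libraries of gpb1-2 were not placed in this way, so that end was not checked. Calls and fitted changes in xlg1-2 are given also without its replicate 1, a choice made after the data were seen. In counts over all mutants or pairs, only comparisons that involve xlg1-2 then come from that fit. Those within or between gpa1-2 and gpb1-2 kept the fit of all 36 libraries. All groups of a fit shared 1 estimate of the spread of each locus. The SEs and p-values of gpa1-2 and gpb1-2 thus also rest on xlg1-2 replicate 1.

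In Tak-1 the 150 loci together took 0.218% to 0.267% of all counts at 0 h, 0.979% to 1.08% at 2 h and 0.253% to 0.279% at 24 h. Their median level was 2.45 CPM at 0 h, 27.9 CPM at 2 h and 4.00 CPM at 24 h. The loci were chosen on these values, which are a description only. At 0 h 55 of the loci were under 1 CPM, while the highest mean at that time was 263 CPM. At 2 h the means ran from 5.05 to 766 CPM, so the set holds both loci that were nearly silent before salt and loci that were already well expressed. Return was incomplete for some: the 24 h mean was more than 2-fold above that at 0 h in 44 loci, more than 2-fold below it in 6, and within 2-fold in 100, each with a pseudocount of 1 CPM.

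**Figure D1:**
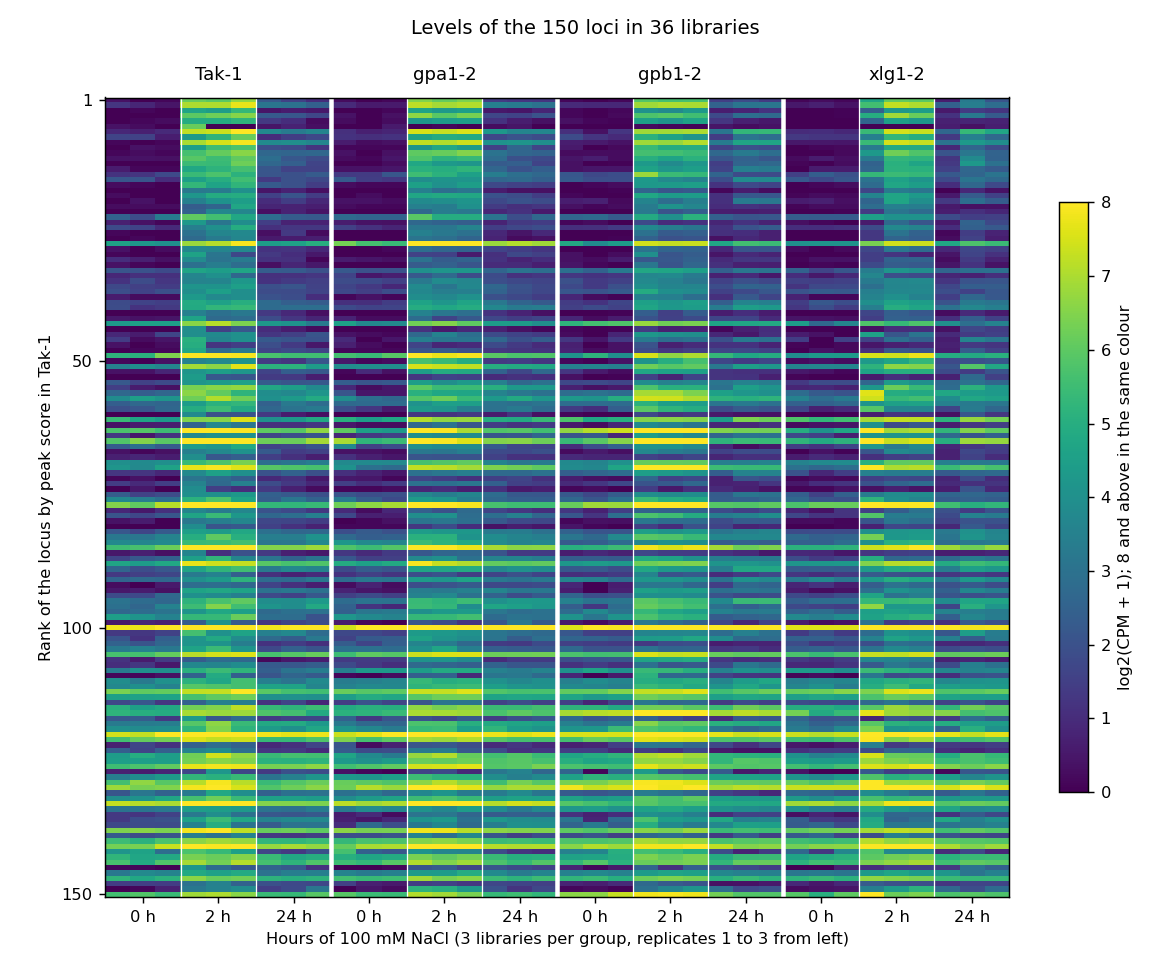
Levels of the 150 loci (vertical axis, rank by score) in 36 libraries (horizontal axis, by genotype and hours of NaCl), as log2(CPM + 1) in colour. The 3 Tak-1 libraries at 2 h are brightest, and a bright 2 h block recurs in each mutant. The loci were chosen on the Tak-1 libraries at 0 h, 2 h and 24 h.

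The highest score, 4.64, belonged to Mapoly0054s0040. Its Tak-1 libraries held 0.319, 0 and 0.0946 CPM at 0 h, 71.6, 62.6 and 103 CPM at 2 h, and 3.67, 1.93 and 1.05 CPM at 24 h. The same locus was at 67.4 to 87.9 CPM at 2 h in gpa1-2, 48.8 to 56.9 CPM in gpb1-2 and 25, 67.1 and 62.7 CPM in xlg1-2. It was thus near silent at 0 h and high at 2 h in all 4 genotypes, with xlg1-2 replicate 1 the lowest of the 2 h libraries.

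Mapoly0061s0005 ranked second. In Tak-1 it was at 1.38, 0.833 and 0.379 CPM at 0 h, 128, 130 and 214 CPM at 2 h, and 7.59, 6.84 and 4.53 CPM at 24 h. The 3 time points did not overlap. At the other end of the set, Mapoly0069s0095, rank 150, had a score of 1.2089 with means of 48.3, 113 and 47.2 CPM, and Mapoly0089s0042, the first locus outside, had 1.2081 with 150, 349 and 137 CPM. Nothing in the values separates these neighbours, so the limit of 150 is a matter of number only.

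In Tak-1 the 2 h libraries lay apart from those of the other times for most of the loci. The lowest 2 h library was above the highest 0 h library in 147 loci and above the highest 24 h library in 142. The loci were chosen on these same libraries, which favours such a separation, and its share among all eligible loci was not counted. In 16 loci, however, the highest 2 h library was more than 3 times the middle one, against 27 (0.32%) of all eligible loci. Replicate 1 was the high library in 12 of the 16, replicate 2 in 3 and replicate 3 in 1. The extreme case, singled out after its values were seen, was Mapoly0106s0033 at rank 6. It was at 69.5, 0 and 0 CPM in the 3 Tak-1 libraries at 2 h and at or under 0.701 CPM in each of the other 33 libraries of the table. Its place in the set rests on 1 library, and it alone of the 150 did not pass the filter on low counts before testing.

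**Figure D2:**
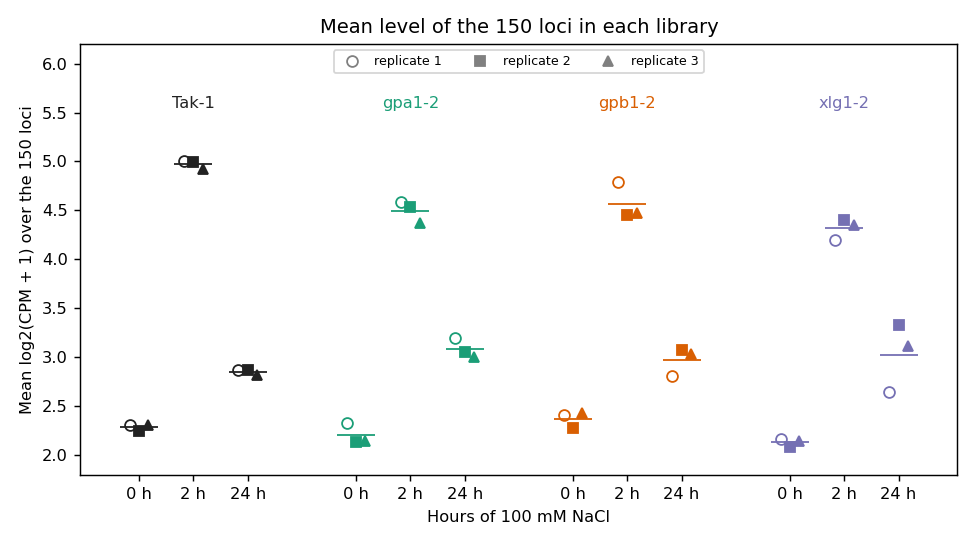
Mean log2(CPM + 1) over the 150 loci (vertical axis) in each library, by genotype and hours of NaCl; symbols mark replicate numbers and the bar is the mean of the 3 libraries. Each mutant library at 2 h lies above all libraries of that mutant at 0 h and 24 h, and all 9 lie below the 3 Tak-1 libraries at 2 h. The loci were chosen on the Tak-1 libraries at 0 h, 2 h and 24 h.

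The first tested question was whether the loci also rose at 2 h in the G-protein mutants, which the choice of loci did not use. They did in most cases. Of the 150 loci, 149 could be tested, and in gpa1-2 134 were called higher at 2 h than at 0 h (edgeR, adjusted p under 0.05 over 10296 loci), against 12.1% of all loci tested. In gpb1-2 134 were called higher, against 15.2%. In xlg1-2 the number was 141, against 16.2%, and 132 without replicate 1. The fit without that replicate called 21.3% of all loci in either direction in xlg1-2. No member was called lower in any mutant by edgeR or DESeq2, against 10.3%, 14.1% and 14.5% of all loci. In either direction 141, 138 and 145 members had an unadjusted p under 0.05. The median log2 change was 2.63 in gpa1-2, 2.39 in gpb1-2 and 2.64 in xlg1-2 (2.55 without replicate 1), and that of all loci tested was 0.003, 0.012 and 0.002.

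Of these rises, 124 were called in all 3 mutants (122 without xlg1-2 replicate 1), and 4 of the 150 loci (7 without it) had a called rise in none, the untested locus among them. For this and the later counts over all 3 mutants, the matching share of all loci tested was not counted. Where such a count is given without xlg1-2 replicate 1, only its xlg1-2 calls come from the fit without it. The clearest rise in each mutant was that of Mapoly0061s0005. It was at 0.939, 0.509 and 0.481 CPM at 0 h in gpa1-2 and at 146, 119 and 133 CPM at 2 h, a log2 change of 7.63 (SE 0.46, edgeR adjusted p = 1.19e-12). In gpb1-2 it went from 0.920, 0.875 and 0.873 CPM to 114, 130 and 126 CPM (log2 7.03, SE 0.42, edgeR adjusted p = 7.86e-13). In all of these libraries 2 h lay above 0 h by more than the spread among replicates. In xlg1-2 it went from 0.441, 0.632 and 0.307 CPM to 47.0, 154 and 132 CPM (log2 7.95, SE 0.47, edgeR adjusted p = 6.66e-13), with replicate 1 the low library at 2 h. Without that replicate the log2 change was 8.30 (SE 0.41, edgeR adjusted p = 6.54e-14).

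Mapoly0087s0016, rank 11, was next in gpa1-2 and xlg1-2. It was at 0.313, 0 and 0.289 CPM at 0 h and 63.7, 70.2 and 90.6 CPM at 2 h in gpa1-2 (log2 8.42, SE 0.57, edgeR adjusted p = 1.09e-11). The xlg1-2 libraries held 0, 0 and 0.153 CPM at 0 h and 18.6, 76.1 and 54.2 CPM at 2 h (log2 9.17, SE 0.63, edgeR adjusted p = 6.60e-12), and without replicate 1 the change was 9.10 (SE 0.51, edgeR adjusted p = 8.93e-13). In gpb1-2 the second clearest rise was that of Mapoly0193s0015, rank 50, from 0.0920, 0 and 0.308 CPM to 16.3, 30.4 and 49 CPM (log2 7.42, SE 0.52, edgeR adjusted p = 8.31e-12). These loci gave almost no counts before salt, and none of the 2 h libraries overlapped those at 0 h. In 10, 3 and 7 of the tested loci, all 3 libraries were at 0 at 0 h in gpa1-2, gpb1-2 and xlg1-2, where a fitted change depends on the prior count. The bounds given by 3 counts over the group were 8.28-fold or more for these loci, all above the 3 medians given for the rise. Setting the changes to those bounds therefore could not move the medians, and did not.

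The loci also fell between 2 h and 24 h in the mutants. In gpa1-2 119 were called lower at 24 h than at 2 h, against 21.0% of all loci tested. In gpb1-2 120 were called lower, against 19.6%, and in xlg1-2 117, against 21.1%, or 99 without replicate 1. The fit without that replicate called 36.4% of all loci in either direction in xlg1-2. No member was called higher by edgeR or DESeq2, against 21.0%, 18.4% and 20.7%, and 123, 122 and 127 had an unadjusted p under 0.05 in either direction. The median log2 change was -1.51, -1.75 and -1.52, the last being -1.32 without replicate 1. Falls were called in all 3 mutants for 101 loci and in none for 14, or 91 and 14 without xlg1-2 replicate 1.

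Mapoly0036s0013, rank 106, had the clearest fall in each mutant. In gpb1-2 it was at 24.4, 27.1 and 29.8 CPM at 2 h and 1.42, 1.05 and 1.10 CPM at 24 h (log2 -4.55, SE 0.26, edgeR adjusted p = 5.34e-13). In gpa1-2 it went from 16.3, 17.2 and 13.1 CPM to 0.958, 1.58 and 1.56 CPM (log2 -3.56, SE 0.26, edgeR adjusted p = 1.46e-11). In xlg1-2 it went from 12, 11.2 and 9.54 CPM to 0.664, 0.761 and 0.551 CPM (log2 -4.17, SE 0.28, edgeR adjusted p = 3.31e-12), and the log2 change was -4.10 without replicate 1 (SE 0.35, edgeR adjusted p = 1.43e-09). The 2 h and 24 h libraries were far apart in each mutant. In Tak-1, where it was chosen, the locus reached only 3.94, 5.92 and 5.31 CPM at 2 h, below every mutant library at that time.

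The other loci named for this fall were well expressed throughout. Mapoly0071s0040, rank 77, was at 322, 304 and 236 CPM at 2 h and 49.8, 44.8 and 44.6 CPM at 24 h in gpa1-2 (log2 -2.71, SE 0.21, edgeR adjusted p = 3.77e-11), and fell by 2.90 on the log2 scale in xlg1-2 (SE 0.21, edgeR adjusted p = 1.13e-11), with a log2 of -2.97 without replicate 1. Mapoly0014s0187, rank 69, went from 67.7, 66.3 and 65.7 CPM to 9.64, 9.87 and 11 CPM in gpb1-2 (log2 -2.75, SE 0.22, edgeR adjusted p = 9.48e-11). Both had lower values at 24 h than at 0 h in the mutants named here. For Mapoly0071s0040 that difference was called in gpa1-2, from 74.6, 99.8 and 123 CPM at 0 h (log2 -1.22, SE 0.20, edgeR adjusted p = 1.13e-05). It was called in xlg1-2 as well (log2 -0.94, SE 0.20, edgeR adjusted p = 0.00029), and without replicate 1 (log2 -1.22, SE 0.24, edgeR adjusted p = 0.00021).

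**Figure D3:**
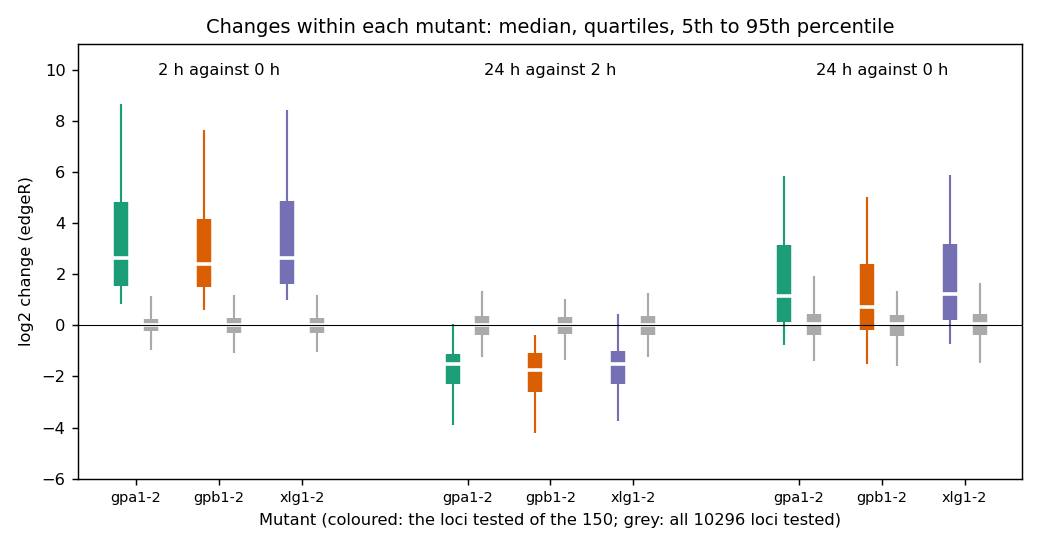
Log2 changes (vertical axis) within each mutant between the times named at the top, for the 149 tested loci of the set (coloured) and all 10296 loci tested (grey); boxes span the quartiles, white marks are medians and lines reach the 5th and 95th percentiles. The coloured boxes lie above 0 for 2 h against 0 h and below 0 for 24 h against 2 h, with medians of 2.39 to 2.64 and -1.75 to -1.51.

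Both calls together, a rise at 2 h and a fall by 24 h, were made for 114 loci in gpa1-2, against 4.72% of all loci tested. For gpb1-2 the number was 110, against 5.74%, and for xlg1-2 116, against 6.32%, or 96 without replicate 1. The share of all loci with both calls was not counted without that replicate. The 2 calls share the 2 h libraries, so they are not independent of each other. A peak was called in all 3 mutants for 90 loci (60.0% of 150) and in none for 18, or 82 and 19 without xlg1-2 replicate 1. It was called in all 3 for 38 of the loci at ranks 1 to 50, 27 of those at ranks 51 to 100, and 25 of those at ranks 101 to 150, or 39, 22 and 21 without that replicate. Among the 16 loci with 1 high library at 2 h in Tak-1, a peak was called for 4 in gpa1-2, 5 in gpb1-2 and 1 in xlg1-2, and for 8 of them in no mutant. The other 134 had 110, 105 and 115 such calls. Without xlg1-2 replicate 1 the xlg1-2 numbers were 1 and 95. The 16 were picked for a large spread in Tak-1, and the Tak-1 libraries share the estimate of spread with the mutants. Fewer calls among the 16 are thus favoured by how they were picked, and these numbers are a description only.

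**Figure D4:**
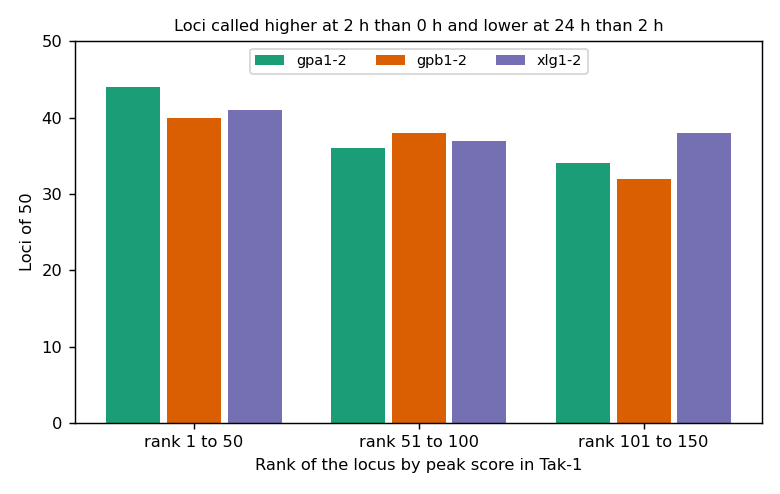
Number of loci of 50 (vertical axis, from 0) with both a rise at 2 h and a fall by 24 h called by edgeR at an adjusted p under 0.05, by rank of score in Tak-1 and by mutant. Bars run from 32 to 44, and the highest band of ranks has 40 to 44.

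Return to the starting level was partial in many loci. At 24 h 74 loci (49.3%) were still called above 0 h in gpa1-2 and 9 (6.0%) below it, against 25.4% and 22.5% of all loci tested. In gpb1-2 these numbers were 65 (43.3%) and 16 (10.7%), against 24.5% and 22.9%, and in xlg1-2 88 (58.7%) and 9 (6.0%), against 26.0% and 23.7%, or 84 and 6 without replicate 1. The fit without that replicate called 42.0% of all loci in either direction in xlg1-2. The median log2 change from 0 h to 24 h was 1.16, 0.72 and 1.21, the last being 1.49 without replicate 1. A called peak with a called excess at 24 h was found for 53 loci in gpa1-2, 45 in gpb1-2 and 63 in xlg1-2 (49 without replicate 1). An excess at 24 h was called in all 3 mutants for 49, with or without that replicate. The share of all loci tested with an excess called in all 3 was not counted.

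Mapoly0009s0099, rank 93, was named for this excess in each mutant. In gpa1-2 it was at 0.731, 0.407 and 0.289 CPM at 0 h, 9.5, 8.5 and 10.3 CPM at 2 h, and 11.5, 7.98 and 8.21 CPM at 24 h, so that the last 2 times overlapped. From 0 h to 24 h its log2 change was 4.14 (SE 0.45, edgeR adjusted p = 1.21e-08), and from 2 h to 24 h it was -0.11 (SE 0.31, edgeR adjusted p = 0.81). In gpb1-2 its libraries held 0.552, 0 and 0.667 CPM, then 22.9, 19.3 and 21.2 CPM, then 6.52, 7.88 and 7.15 CPM, with a called fall (log2 -1.60, SE 0.31, edgeR adjusted p = 0.00014). The xlg1-2 libraries held 6.49, 16.1 and 12 CPM at 2 h and 4.46, 11.9 and 9.52 CPM at 24 h, which overlapped, and without replicate 1 the change was -0.48 (SE 0.27, edgeR adjusted p = 0.18). The locus thus had a fall called in 1 of the 3 mutants, and a direct test between the mutants for this fall was not made.

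Other loci were also above their starting level at 24 h. Mapoly0137s0033, rank 125, went from 18.5, 15.2 and 19.4 CPM at 0 h to 54.2, 59.1 and 50.03 CPM at 24 h in gpa1-2 (log2 1.504, SE 0.15, edgeR adjusted p = 2.27e-09). In gpb1-2 Mapoly0087s0018, rank 9, went from 0.552, 0.486 and 0.308 CPM to 9.36, 24.8 and 25.2 CPM (log2 5.41, SE 0.59, edgeR adjusted p = 1.79e-08). For xlg1-2 the example was Mapoly0003s0270, rank 82, from 2.56, 2.74 and 2.56 CPM to 8.35, 15.7 and 11.1 CPM (log2 1.99, SE 0.23, edgeR adjusted p = 4.92e-08), or 2.14 without replicate 1. In each case the lowest 24 h library lay above the highest 0 h library. Among the loci called below 0 h at 24 h, Mapoly0021s0034 in gpa1-2 rested on 1 library: it was at 48.7, 4.48 and 3.47 CPM at 0 h and 2.55, 1.3 and 1.07 CPM at 24 h. Its log2 change was -3.64 (SE 0.87, edgeR adjusted p = 0.001), and -1.43 without the high 0 h library (edgeR adjusted p = 0.16).

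The mutants were also compared with each other at each time. At 0 h 15 loci were called between gpa1-2 and gpb1-2, 4 higher and 11 lower in gpa1-2, against 2.03% and 3.61% of all loci tested, or 5.64% in either direction. At 2 h there were 23, 10 higher and 13 lower, against 3.13% and 4.41%, or 7.54%. At 24 h there were 20, 16 higher and 4 lower, against 5.83% and 4.65%, or 10.5%. These counts moved with the model and with single libraries. A model of only both groups called 8, 48 and 32 members at 0, 2 and 24 h. The share of all loci called was not counted for this model or for the fits without 1 library. Whether calls over all loci moved in the same way is therefore not known. At 0 h 8 were called without replicate 3 of either mutant. At 2 h there were 11 without gpa1-2 replicate 1 or 3 and 13 without gpb1-2 replicate 1, and at 24 h 13 without gpa1-2 replicate 1 or gpb1-2 replicate 2 and 12 without gpb1-2 replicate 3. Between gpa1-2 and xlg1-2 the numbers were 3, 2 and 4 at 0, 2 and 24 h, all higher in gpa1-2, against 1.1%, 0.777% and 1.95% of all loci called higher and 2.22%, 1.6% and 3.36% called in either direction. Without xlg1-2 replicate 1 they were 3, 1 and 8, against 1.72%, 1.12% and 2.42% of all loci called in either direction. Of those 8 at 24 h, 3 were higher and 5 lower in gpa1-2.

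Between gpb1-2 and xlg1-2 the count turned on that replicate. With all libraries 7, 5 and 7 loci were called at 0, 2 and 24 h, against 1.04%, 2.02% and 2.25% of all loci. Without replicate 1 there were 10, 31 and 15, against 2.26%, 6.11% and 3.7%. Of those 31 at 2 h, 23 were higher and 8 lower in gpb1-2. Leaving out any other library at 2 h gave 2 or 3, and leaving out replicate 2 or 3 of either mutant at 24 h gave 3 or 4. At 0 h 4 were called without gpb1-2 replicate 1 or 3, and 2 without xlg1-2 replicate 2 or 3. Over all pairs and times 40 loci were called at least once and 110 never. The numbers were 60 and 90 when only the comparisons with xlg1-2 were taken from the fit without its replicate 1. The share of all loci tested that were called at least once was not counted, so these numbers are a description only.

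Mapoly0049s0102, rank 133, differed most clearly between the mutants. In gpb1-2 it was at 57.5, 48.8 and 38.2 CPM at 0 h, 59.3, 48.3 and 50.4 CPM at 2 h, and 28.0, 27.4 and 26.4 CPM at 24 h. The gpa1-2 libraries held 144, 115 and 131 CPM, then 439, 401 and 320 CPM, then 137, 176 and 156 CPM. Tak-1 had 155, 139 and 125 CPM, then 343, 358 and 324 CPM, then 89.8, 88.6 and 83.8 CPM. Thus gpb1-2 lay below gpa1-2 and Tak-1 at every time, and its 0 h and 2 h libraries overlapped.

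In gpb1-2 the log2 change of Mapoly0049s0102 from 0 h to 2 h was 0.04 (SE 0.18, edgeR adjusted p = 0.90), against 1.53 in gpa1-2 (SE 0.18, edgeR adjusted p = 2.33e-07). The difference of these changes was 1.49 (SE 0.26, edgeR adjusted p = 0.014), and this locus was the only 1 of the 150 called for a difference in the 2 h change between gpa1-2 and gpb1-2, against 0.0291% of all loci tested. A further 9 had an unadjusted p under 0.05, of 10 in all. The call was lost in 6 of the 12 fits that left out 1 of the libraries of these groups, with log2 values of 1.32 to 1.66 over all 12. Those 6 were the fits without gpa1-2 replicates 2 or 3 at 0 h, gpa1-2 replicate 1 at 2 h, gpb1-2 replicate 1 at 0 h, and gpb1-2 replicates 2 or 3 at 2 h. In xlg1-2 the locus was at 116, 129 and 97.8 CPM at 0 h and 126, 221 and 225 CPM at 2 h, with replicate 1 low at 2 h. The change there was 0.66 (SE 0.18, edgeR adjusted p = 0.0052), and 0.85 (SE 0.18, edgeR adjusted p = 0.0012) without that replicate.

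No member was called for a different 2 h change between gpa1-2 and xlg1-2 or between gpb1-2 and xlg1-2 by edgeR, and 15 and 11 had an unadjusted p under 0.05. DESeq2 also called 0 and 0. The percentages of all loci called were 0.0291% and 0.0%. These counts of 0 do not show that the mutants respond alike.

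**Figure D5:**
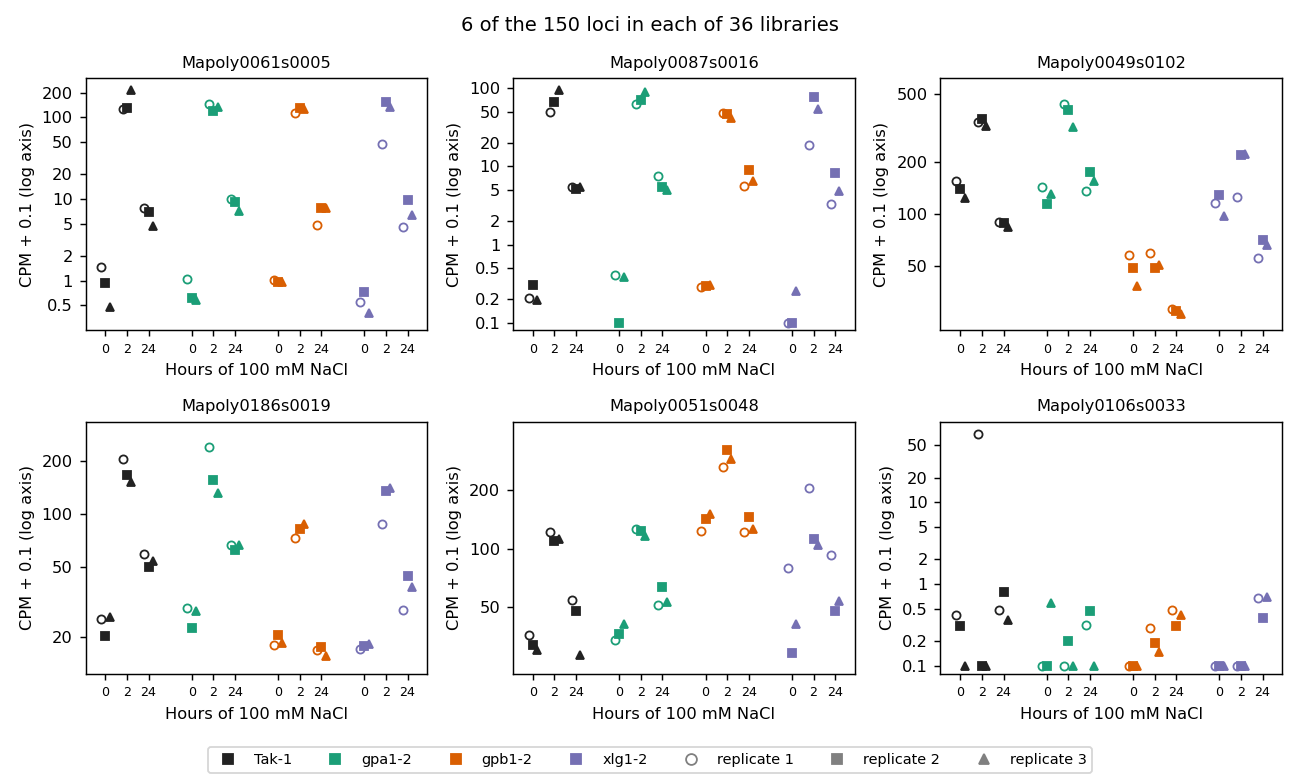
CPM + 0.1 on a log axis (vertical) in each of 36 libraries for 6 loci chosen after their values were seen, by hours of NaCl; colours mark genotypes and symbols replicate numbers. Mapoly0061s0005 and Mapoly0087s0016 peak at 2 h in every genotype, Mapoly0049s0102 and Mapoly0186s0019 are low in gpb1-2 at 2 h and 24 h, Mapoly0051s0048 is high in gpb1-2, and Mapoly0106s0033 is above 1 CPM in 1 library.

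Mapoly0186s0019, rank 88, kept its peak in gpb1-2 at a lower level. It was at 17.9, 20.5 and 18.3 CPM at 0 h, 73.6, 82.8 and 87.4 CPM at 2 h, and 16.7, 17.5 and 15.5 CPM at 24 h in gpb1-2. In gpa1-2 it was at 29.1, 22.5 and 28.0 CPM, then 241, 156 and 132 CPM, then 66.5, 62.5 and 67.0 CPM. At 2 h and 24 h the groups did not overlap. The gpa1-2 level was higher by a log2 of 1.17 at 2 h (SE 0.18, edgeR adjusted p = 5.29e-05) and 2.00 at 24 h (SE 0.20, edgeR adjusted p = 7.72e-09). At 24 h gpb1-2 was also below xlg1-2, at 28.4, 44.4 and 38.5 CPM (log2 -1.18, SE 0.20, edgeR adjusted p = 0.00027, and -1.35 without xlg1-2 replicate 1).

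Mapoly0051s0048, rank 116, was higher in gpb1-2 at all times. It was at 123, 142 and 151 CPM at 0 h, 264, 324 and 290 CPM at 2 h, and 122, 146 and 126 CPM at 24 h in gpb1-2. In gpa1-2 it was at 33.7, 36.1 and 40.5 CPM, then 125, 123 and 116 CPM, then 50.7, 63.1 and 53.1 CPM. The groups did not overlap, and gpa1-2 was lower by log2 values of -1.90 (SE 0.27, edgeR adjusted p = 1.91e-05), -1.22 (SE 0.26, edgeR adjusted p = 0.0025) and -1.22 (SE 0.26, edgeR adjusted p = 0.0019). In xlg1-2 replicate 1 was the high library at each time, at 79.1 CPM against 28.9 and 40.5 CPM at 0 h, 205 against 112 and 104 CPM at 2 h, and 92.8 against 47.4 and 53.3 CPM at 24 h. The difference of gpb1-2 from xlg1-2 was a log2 of 1.43 at 0 h (SE 0.26, edgeR adjusted p = 0.0061) and 1.89 without that replicate (SE 0.19, edgeR adjusted p = 4.13e-07). Without xlg1-2 replicate 2 or 3 instead, the call was lost, at 1.18 and 1.27 (edgeR adjusted p = 0.093 and 0.065).

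Mapoly0114s0014, rank 28, was the locus called in gpa1-2 against both other mutants at each time. Its gpa1-2 libraries held 79, 49 and 41.7 CPM at 0 h, 376, 322 and 387 CPM at 2 h, and 110, 135 and 114 CPM at 24 h. The xlg1-2 libraries held 15.2, 16.3 and 16.3 CPM, then 82.7, 171 and 163 CPM, then 25.9, 53.9 and 42.5 CPM. They did not overlap those of gpa1-2 at any time, nor did gpb1-2 at 13.8 to 27.2, 153 to 172 and 25.8 to 46.3 CPM. The log2 difference between gpa1-2 and xlg1-2 was 1.78 at 0 h (SE 0.32, edgeR adjusted p = 0.00074), 1.35 at 2 h (SE 0.29, edgeR adjusted p = 0.0079) and 1.56 at 24 h (SE 0.30, edgeR adjusted p = 0.0016). Without xlg1-2 replicate 1 the call at 2 h was lost, at 1.08 (SE 0.29, edgeR adjusted p = 0.073). The rise at 2 h was called in gpa1-2 (log2 2.63), gpb1-2 (2.88) and xlg1-2 (3.05), so the locus was set apart by level.

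Mapoly0067s0073, rank 84, and Mapoly0172s0022, rank 43, differed before salt. The first was at 17.6, 12.8 and 11.4 CPM at 0 h in gpa1-2, 3.77, 4.28 and 6.16 CPM in gpb1-2, and 4.32, 4.53 and 6.39 CPM in xlg1-2. It was higher in gpa1-2 than in gpb1-2 by a log2 of 1.55 (SE 0.26, edgeR adjusted p = 0.00021) and than in xlg1-2 by 1.39 (SE 0.26, edgeR adjusted p = 0.0014), or 1.25 without xlg1-2 replicate 1 (SE 0.23, edgeR adjusted p = 0.0016). Mapoly0172s0022 was at 35.9, 48.1 and 55 CPM at 0 h in gpb1-2 and 20.6, 5.58 and 11.5 CPM in xlg1-2 (log2 1.83, SE 0.30, edgeR adjusted p = 0.0021), and the difference was 2.31 without replicate 1 (SE 0.31, edgeR adjusted p = 2.68e-05). The groups compared did not overlap for either locus, and both loci peaked at 2 h in Tak-1, where the first was at 40.9, 42.7 and 48.3 CPM and the second at 95.3, 141 and 84.8 CPM.

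Against Tak-1 the mutants were compared without a test, because the choice of loci favours high Tak-1 values at 2 h and low ones at 0 h and 24 h. The mutant mean was below that of Tak-1 at 2 h in 129 loci for gpa1-2, 103 for gpb1-2 and 132 for xlg1-2. Median log2 ratios were -0.42, -0.35 and -0.53, while over all eligible loci they were -0.06, -0.02 and -0.08. At 24 h the mutant mean was above that of Tak-1 in 112, 90 and 102 loci, a direction that the choice also favours. Median log2 ratios there were 0.22, 0.15 and 0.22, and -0.02, -0.01 and -0.01 over all eligible loci. Without replicate 1 the xlg1-2 medians were -0.57 at 2 h and 0.34 at 24 h. All 3 mutants share the Tak-1 libraries.

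Lists were also remade and scored in single libraries that did not choose them. Such scores use 1 library per time and other lists, so they cannot be set against the scores from means of 3 libraries. When the list was remade from 2 Tak-1 replicate numbers and scored in the replicate left out, the median score of the list was 1.56, 1.75 and 1.53 in the 3 Tak-1 replicates. For the same lists single gpa1-2 replicates gave 0.976 to 1.31, single xlg1-2 replicates 0.930 to 1.25, and single gpb1-2 replicates 0.967 to 1.85. The Tak-1 medians lay above all of those of gpa1-2 and xlg1-2 and within the range of gpb1-2, in which replicate 1 gave the high values. A list made in Tak-1 still favours loci that peak in Tak-1, so these values are a description.

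The same rule applied to each mutant gave overlapping lists. Of the 150 loci, 108 (72.0%) were in the list made in gpa1-2, 91 (60.7%) in that of gpb1-2 and 97 (64.7%) in that of xlg1-2, each also of 150 loci. There were 72 in the lists of all 4 genotypes and 23 in no list made in a mutant. The highest of the 3 time means was at 2 h for 138 loci in gpa1-2, 145 in gpb1-2 and 138 in xlg1-2. The share of all eligible loci with their highest mean at 2 h in a mutant was not counted. The xlg1-2 numbers here include its replicate 1, and no list was made without it.

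Some of the loci carried neighbouring identifiers, a property the rule did not use. The identifiers of this annotation name a scaffold and a number along it. By that order 31 of the 150 (20.7%) stood directly beside another member, in 14 runs of at most 3 loci. Of the 127 eligible loci directly beside a member, 31 (24.4%) were members, against 1.8% of all eligible loci. The 150 came from 82 scaffolds, and 6 carried the scaffold name Mapoly0035. Reads shared between near-identical neighbours could be divided or lost in counting, so levels of loci in such runs are uncertain. In those 31 loci a peak was called in all 3 mutants for 20, or 19 without xlg1-2 replicate 1.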

How the data were processed

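RNA from whole gemmalings was sequenced, and the deposited tables hold whole-number counts per locus made by the authors. STAR is named in the submitters' processing notes, while no version, Marchantia build or counting tool is stated there. In the Marchantia table of G-protein mutants, 3012 of 16743 identifiers stood on 2 lines and were summed (1 of the 150 loci, against 5.2% of eligible loci). The members, comparisons and naming rule were chosen with earlier results of these data known.

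CPM values are counts divided by each library's total. Tests used edgeR 4.0.16 in R 4.3.3 on all 36 libraries, with filterByExpr (minimum count 10, minimum total 15), TMM scaling, 1 mean per group and the quasi-likelihood F-test, with Benjamini-Hochberg adjustment over 10296 loci and calls at an adjusted p under 0.05. Adjusted p-values of loci in the text are from this model. The p-values rest on the spread among libraries that the labels call replicates, part of which may be technical. Levels under about 1 CPM rest on few counts in the shallower libraries.

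Loci were named by a rule: the 2 highest scores, those on either side of the limit, and for each comparison at most 2 called members higher and 2 lower with the smallest p-values, any others being said to be chosen after their values were seen. Alternatives were DESeq2 1.42.0, DESeq2 size factors, no filter on low counts, a replicate block, a model of only the groups compared, other ways of scoring, and leaving out each library. Same-numbered libraries deviated together (every correlation over 0.1 across 2000 loci) in 6 of 21 comparisons, by the data alone, and the blocked fit moved no count by over 1.5 times in those. Identifiers of the separate Marchantia WRKY table matched none of those used here, so that table was not compared.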

Additional observations from a re-analysis of the deposited data

Results flagged for a closer look

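A difference in response between 2 genotypes was found for 1 locus of the 150. Mapoly0049s0102 rose at 2 h in gpa1-2 (log2 1.53) and had a change of 0.04 in gpb1-2, and the edgeR test of the difference itself gave a log2 of 1.49 (SE 0.26, adjusted p = 0.014). DESeq2 also called 1 locus, while a model restricted to both groups called 0. Its level in gpb1-2 was lower than in gpa1-2 at 0 h as well, by a log2 of 1.44, so the locus differed in level before salt. Whether the difference in level bears on the difference in response was not tested.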

How the results depend on the processing

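Counts of members that rose, fell or did both within a mutant kept their direction and stayed within 1.5 times under each alternative run. With 1 library left out, rises at 2 h numbered 128 to 135 in gpa1-2, 125 to 130 in gpb1-2 and 133 to 141 in xlg1-2. Falls numbered 110 to 116, 113 to 118 and 107 to 121, calls between 24 h and 0 h 70 to 79, 63 to 75 and 77 to 96, and peaks 103 to 115, 100 to 109 and 106 to 119. Remaking the list without 1 Tak-1 library shared 131 to 145 loci with the list used, a pseudocount of 5 CPM shared 128 and TMM-scaled CPM 147.

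Counts between mutants moved more, and the cause was not tested. The share of all loci called was not counted for the alternative models or for the fits with 1 library left out. A model of only the groups compared called 8, 48 and 32 members between gpa1-2 and gpb1-2 at 0, 2 and 24 h, 0 and 8 between gpa1-2 and xlg1-2 at 2 and 24 h, 3 and 2 between gpb1-2 and xlg1-2 at 0 and 2 h, and 0 for the difference in 2 h response between gpa1-2 and gpb1-2. DESeq2 called 8 between gpa1-2 and xlg1-2 at 24 h, and 12 and 9 between gpb1-2 and xlg1-2 at 0 and 2 h. The replicate block called 11 between gpb1-2 and xlg1-2 at 2 h; same-numbered libraries of these groups deviated together with correlations of 0.182, 0.056 and 0.297, and as 1 of these was under 0.1 the numbers were not taken as pairs. Over all groups 35 of 36 libraries had their best match at their own number, which is a hint from the data and not the design. It changed no other count by over 1.5 times.

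With 1 library left out, calls between gpa1-2 and gpb1-2 numbered 8 to 15 at 0 h, 11 to 22 at 2 h and 12 to 25 at 24 h, and 0 to 1 for the response. Between gpa1-2 and xlg1-2 they numbered 3 to 4, 1 to 3 and 3 to 5 at the same times, and between gpb1-2 and xlg1-2 2 to 7, 2 to 28 and 3 to 10. Without xlg1-2 replicate 1 at every time, an alternative added after the data were seen, the former were 3, 1 and 8 and the latter 10, 31 and 15, with 132 rises, 99 falls and 96 peaks in xlg1-2. The libraries whose absence lowered the count between gpa1-2 and gpb1-2 by over 1.5 times were replicate 3 of each at 0 h, gpa1-2 replicates 1 and 3 and gpb1-2 replicate 1 at 2 h, and gpa1-2 replicate 1 and gpb1-2 replicates 2 and 3 at 24 h. Between gpb1-2 and xlg1-2 they were gpb1-2 replicates 1 and 3 and xlg1-2 replicates 2 and 3 at 0 h, each library but xlg1-2 replicate 1 at 2 h, and replicates 2 and 3 of both at 24 h, and between gpa1-2 and xlg1-2 xlg1-2 replicate 1 at 2 h. Of the tests of single named loci, 8 of 270 under other settings and 28 of 355 with 1 library or xlg1-2 replicate 1 left out lost their call, and none changed sign. The comparisons planned with the Marchantia WRKY table were not run, because its identifiers belong to another annotation.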
